A study of Penaeus monodon with 38 samples.

Results

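The transcripts described here were first sequenced from a cDNA library made from the eyestalk of the giant tiger prawn, Penaeus monodon. The members are the array probes whose annotation names that library's clones (P.mon followed by a number), except those annotated as arginine kinase, arrestin, a myosin, muscle LIM protein, a ribosomal protein or ubiquitin. This rule kept 40 of the 52 eyestalk library transcripts, measured by 100 of 2240 probes on an array of 921 transcripts in all. The rule used the annotation and no measured value. Of the 40 transcripts, 12 carry a protein or gene name (34 probes) and 28 carry none (66 probes); 2 transcripts have 1 probe, 16 have 2 and 22 have 3. Probes are named by clone and by the first and last base of the clone's sequence that they match, so that P.mon15 177-211 is the probe of clone P.mon15 that spans bases 177 to 211.

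The study set ovarian maturation in wild-caught adult females beside that in captive-reared ones, with 38 single-colour arrays (Cy5 label, total RNA, no second channel). Wild ovary and wild eyestalk had 12 arrays each, 2 at each of 6 stages: before ablation of 1 eyestalk, 2 h and 24 h after it (these 3 previtellogenic), and vitellogenic, round cortical rod and elongated cortical rod (these 3 vitellogenic, with cortical rods being the jelly precursors at the edge of the ripening oocyte). Wild cephalothorax, the front part of the body, had 1 array per stage (6 arrays). Captive ovary and captive eyestalk had 4 arrays each, 1 at each of 4 stages: preablation and postablation previtellogenic, vitellogenic, and elongated cortical rod. All animals were adult, the labels call the unablated females intermoult, and no group carries a genetic change. Ovarian RNA of the wild animals was pooled in groups of 4 and 5 for each stage, and that of the 3 captive animals in 1 pool for each stage, so an array stands for a pool and not for an animal; the labels describe no pooling for eyestalk or cephalothorax.

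The crustacean eyestalk holds the compound eye, the optic ganglia, muscle and cuticle, and the X-organ and sinus gland, whose peptide hormones restrain moulting and the growth of the ovary. Removing 1 eyestalk lowers that restraint, and hatcheries use it to bring on maturation. A clone library samples the RNAs of its tissue roughly by abundance, so a transcript found there may be made in every tissue or mainly in that one.

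Sequences of the probes that carry the largest differences are given first. Clones P.mon34, P.mon50 and P.mon48, which have no protein name, each have 1 probe that holds the same 20 bases, and the 3 signals described below therefore may come from one RNA or from near copies and are not independent of each other. The capitals mark the shared bases, written 5′ to 3′ as deposited.
P.mon34 130-164: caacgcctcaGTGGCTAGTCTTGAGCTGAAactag
P.mon50 223-257: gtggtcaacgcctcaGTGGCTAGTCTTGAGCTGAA
P.mon48 134-168: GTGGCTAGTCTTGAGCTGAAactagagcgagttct

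The longest run common to a pair of these was 30 bases for P.mon34 and P.mon50, 25 for P.mon34 and P.mon48, and 20 for P.mon50 and P.mon48. A second probe of P.mon34 and a second probe of P.mon50 share 21 bases, again in capitals, yet gave unlike signals, as described below.
P.mon34 192-226: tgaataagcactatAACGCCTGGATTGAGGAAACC
P.mon50 304-337: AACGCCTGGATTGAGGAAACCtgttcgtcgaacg

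The remaining sequences belong to other unnamed transcripts that were bright in eyestalk, to 5 of the named transcripts described below, and to P.mon37, which was higher in cephalothorax.
P.mon15 177-211: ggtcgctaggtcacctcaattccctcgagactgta
P.mon15 353-387: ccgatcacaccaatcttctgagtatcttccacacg
P.mon11 153-187: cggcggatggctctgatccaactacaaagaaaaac
P.mon40 177-211: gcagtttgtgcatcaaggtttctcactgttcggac
P.mon33 50-84: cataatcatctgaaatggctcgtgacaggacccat
P.mon43 28-61: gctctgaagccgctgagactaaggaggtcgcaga
P.mon8 297-331 (complex I flavoprotein): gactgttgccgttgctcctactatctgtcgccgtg
P.mon17 223-257 (phenylalanine/tryptophan hydroxylase): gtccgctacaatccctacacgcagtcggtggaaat
P.mon49 135-169 (exoskeletal protein): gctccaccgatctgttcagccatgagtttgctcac
P.mon7 8-42 (phospholipase C): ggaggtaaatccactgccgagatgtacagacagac
P.mon52 314-348 (protein disulfide isomerase): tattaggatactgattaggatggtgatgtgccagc
P.mon37 72-105: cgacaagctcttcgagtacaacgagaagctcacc

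Levels are log2 intensities after background correction and quantile normalisation over the 38 arrays. A probe was taken as above the non-specific level of an array where it exceeded the 90th percentile of 24 probes made from vertebrate sequences; this level lay between 7.68 and 8.72 in wild eyestalk, 8.20 and 8.99 in captive eyestalk, 7.33 and 7.93 in wild ovary, 7.41 and 8.15 in captive ovary, and 7.28 and 7.51 in cephalothorax. On the eyestalk arrays 22.1% to 39% of all probes exceeded it, against 30.7% to 48.8% on the ovary arrays. The level itself differed between tissues: of the 24 vertebrate probes, 9 were higher and 3 lower in wild eyestalk than in wild ovary, and 12 were higher in wild eyestalk than in cephalothorax. Where a group had no array above the level, a fold is given as "at least", from the mean of the brighter group against the dimmer group's mean of the lowest measurable signal.

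Many of the eyestalk library probes were dim in eyestalk RNA. Between 20 and 40 of the 100 exceeded the non-specific level on a wild eyestalk array, and 28 probes of 19 transcripts did so on 6 or more of the 12. The same count was 28 probes of 19 transcripts in captive eyestalk (on 2 or more of 4 arrays), 24 of 17 in wild ovary, 30 of 22 in captive ovary and 35 of 19 in cephalothorax (on 3 or more of 6). No array of any group showed 33 of the 100 probes above the level, against 21.1% of all 2240 probes, and 7 transcripts had no probe above it anywhere. The bright probes were richer in G and C: the median was 51.4% over the 28 probes above the level in wild eyestalk, 44.1% over the 33 never above it, and 48.6% over all 100.

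**Figure D1:**
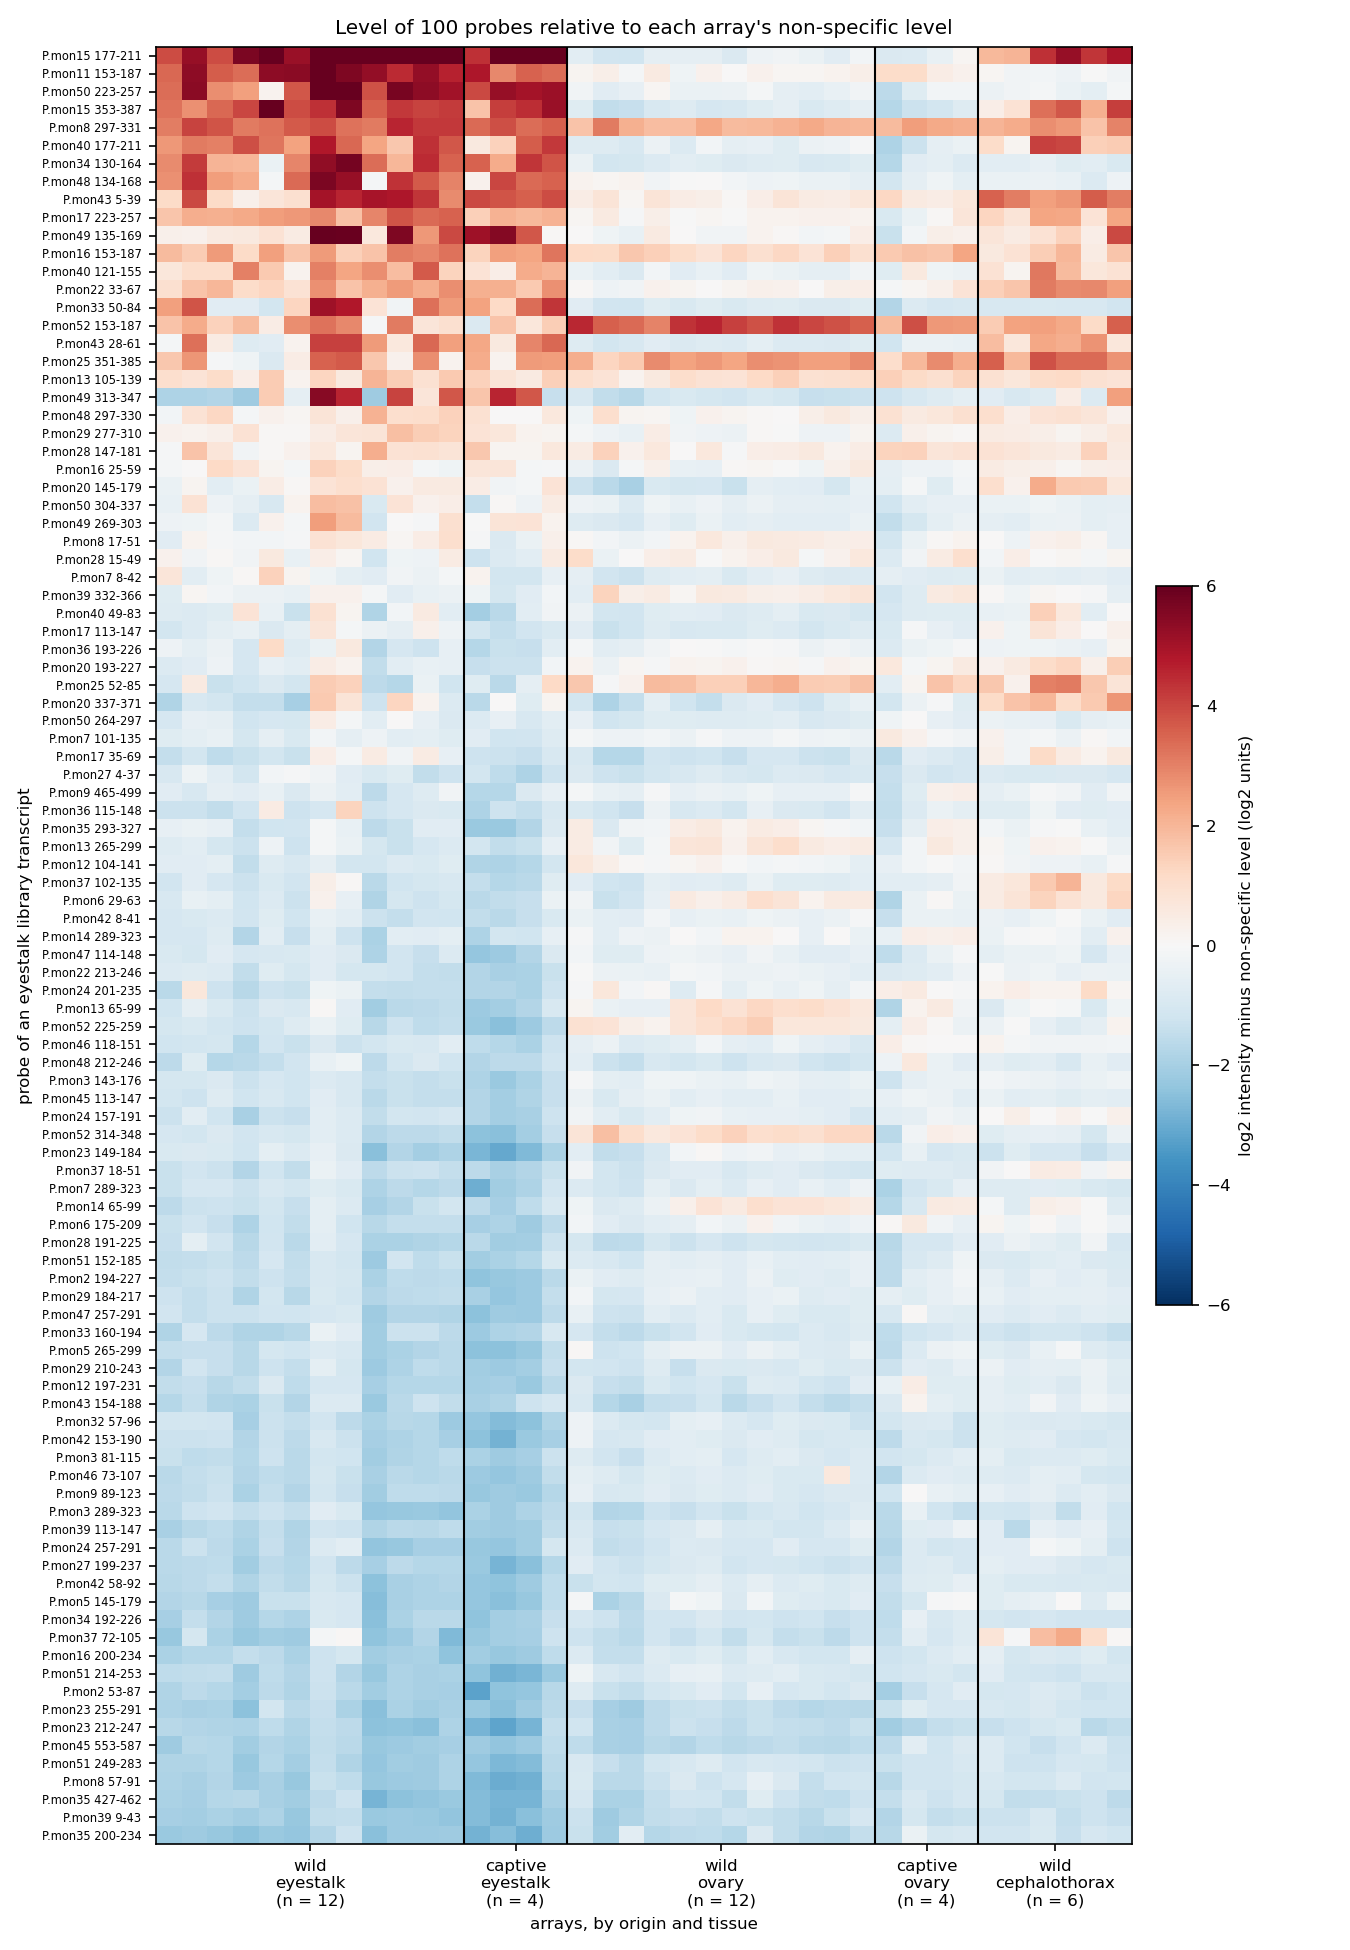
Log2 intensity of each member probe (rows, ordered by their mean in wild eyestalk) minus the non-specific level of the array (columns, grouped by tissue and origin); red is above that level and blue below it. Most rows are dim throughout, and a small set of rows is bright in both eyestalk groups and dim in both ovary groups.

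The labelled tissues were checked with marker probes. Of 17 probes for ovary proteins (vitellogenin, peritrophin, thrombospondin), 0 were higher and 15 lower in wild eyestalk than in wild ovary, with a mean level of 7.11 to 7.73 in eyestalk and of 11.08 to 12.19 in ovary. Of 78 probes for neurosecretory peptides 45 were higher and 6 lower, and of 9 opsin or arrestin probes 7 were higher and 0 lower, where 37% of all probes were higher and 28.6% lower. Many neurosecretory probes were dim: 39 of the 78 were above the non-specific level on no wild eyestalk array. Those above it on 6 or more of 12 arrays numbered 25 in wild eyestalk and 14 in wild ovary, and those above it on at least 2 of 4 numbered 19 in captive eyestalk and 18 in captive ovary. Muscle markers were uneven among the eyestalk arrays, with a mean level over 13 probes of 8.91 to 12.18 in wild eyestalk and 10.23 to 11.40 in captive eyestalk, against 8.54 to 8.98 in wild ovary and 11.77 to 12.60 in cephalothorax. In cephalothorax the ovary markers also had a mean level of 9.25 to 10.06, with 16 of the 17 probes above the non-specific level. As these are whole tissues, fewer cells of a type and less RNA per cell cannot be told apart. Each tissue was hybridised on slides of its own (3 for wild ovary, 3 for wild eyestalk, 2 for cephalothorax, 1 for each captive tissue), so tissue and slide cannot be told apart in any comparison between tissues.

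The first comparison asked whether transcripts from an eyestalk library are higher in eyestalk than in ovary RNA of wild females. Of the 100 probes, 48 (26 transcripts) were higher in eyestalk and 15 (10 transcripts) were lower, by limma at an adjusted p under 0.05; over all probes 37% were higher and 28.6% lower. The median log2 difference was 0.20 over the members and 0.06 over all probes. Every eyestalk array lay above every ovary array for 20 of the 100 probes, against 13.7% of all probes. Of the 48 higher probes, 28 (16 transcripts) differed by 1 or more on the log2 scale; 26 were above the non-specific level on 6 or more eyestalk arrays, and 13 on no array of either tissue, so that for these 13 a difference between dim signals is all that was measured.

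The widest differences belonged to transcripts without a protein name. P.mon15 177-211 had a level of 11.95 at lowest, 14.2 at the median and 15.37 at highest over the 12 wild eyestalk arrays, and 6.69, 6.91 and 7.28 over the 12 wild ovary arrays. The groups lay far apart: all 12 eyestalk arrays and none of the ovary arrays exceeded the non-specific level. The difference was 7.22 ± 0.42 (SE; limma adjusted p = 8.19e-16), at least 97.5-fold. On 5 of the wild eyestalk arrays and 1 of the captive ones this was the second brightest of the 2240 probes, and quantile normalisation gives such a probe the same value, 15.37, on each. The second probe of the clone, P.mon15 353-387, gave 12.34 ± 0.97 (SD, n = 12) in eyestalk and 6.64 ± 0.16 in ovary, at least 28-fold (5.70 ± 0.37, adjusted p = 1.22e-14).

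P.mon11 153-187 ranged from 11.51 to 13.97 with a median of 13.33 in wild eyestalk and from 7.17 to 8.25 with a median of 7.65 in wild ovary. Every eyestalk array was above every ovary array, and 10 of the 12 ovary arrays still exceeded the non-specific level. The difference was 5.29 ± 0.24, or 39.2-fold (adjusted p = 1.97e-18). P.mon40 177-211 ranged from 10.02 to 12.79 (median 11.13) in eyestalk and from 6.56 to 7.40 (median 7.08) in ovary, where no array exceeded the level, a difference of at least 14.5-fold (4.38 ± 0.35, adjusted p = 2.6e-12). Its second probe, P.mon40 121-155, differed in the same direction by 3.00 ± 0.35 (adjusted p = 7.65e-09).

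The 3 probes that share 20 bases were all higher in eyestalk. P.mon50 223-257 ranged from 8.12 to 14.09 (median 12.97) in wild eyestalk and from 6.85 to 7.62 in wild ovary, where 1 of 12 arrays exceeded the non-specific level (5.19 ± 0.46, adjusted p = 2.78e-11). P.mon34 130-164 ranged from 7.50 to 13.64 (median 11.53) against 6.57 to 6.92, at least 14-fold (4.61 ± 0.42, adjusted p = 4.48e-11). P.mon48 134-168 ranged from 7.77 to 13.35 (median 11.48) against 6.93 to 8.15, so the groups overlapped at their edges (3.86 ± 0.44, adjusted p = 6.2e-09).

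Other probes of these clones were much weaker. P.mon34 192-226 exceeded the non-specific level on no array (difference 0.12 ± 0.08, adjusted p = 0.19), whereas P.mon50 304-337, with which it shares 21 bases, did so on 7 of the 12 wild eyestalk arrays and was higher in eyestalk by 1.36 ± 0.22 (adjusted p = 2.71e-06). P.mon48 297-330 was higher by 1.16 ± 0.25 (adjusted p = 0.000182). Dim probes of a clone thus lie beside bright ones, and a clone's difference was measured mainly by its bright probe.

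P.mon33 50-84 and P.mon43 28-61 were the most uneven of the unnamed clones. P.mon33 50-84 ranged from 6.82 to 12.76 (median 10.04; above the non-specific level on 8 of 12 arrays) in wild eyestalk and from 6.54 to 6.77 in wild ovary, at least 5.37-fold (3.28 ± 0.53, adjusted p = 2.81e-06). P.mon43 28-61 ranged from 7.20 to 12 (median 9.93) against 6.56 to 6.95, at least 4.86-fold (3.10 ± 0.49, adjusted p = 2.08e-06), and its overlapping probe P.mon43 5-39 was higher by 3.05 ± 0.50 (adjusted p = 3.88e-06). In both clones the lowest eyestalk array came close to the ovary arrays. P.mon22 33-67, by contrast, was even in eyestalk, at 10.01 ± 0.75 (SD, n = 12) against 7.67 ± 0.16 in ovary, a 5.05-fold difference (adjusted p = 2.21e-10).

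Among the named transcripts, those for enzymes of energy and amine metabolism were higher in eyestalk at their bright probe. P.mon8 is annotated as the flavoprotein 1 subunit of NADH:ubiquinone oxidoreductase, the part of respiratory complex I that takes electrons from NADH. Its probe 297-331 ranged from 11.14 to 12.96 (median 11.82) in wild eyestalk and from 9.05 to 11.01 (median 9.48) in wild ovary, with no overlap and a 4.71-fold difference (2.24 ± 0.22, adjusted p = 2.4e-10). P.mon8 17-51 had a mean of 8.41 against 7.78, above the non-specific level on 7 of 12 eyestalk and 9 of 12 ovary arrays. P.mon8 57-91, at 6.24 against 6.40, exceeded that level on none of these arrays. P.mon17 is annotated as phenylalanine/tryptophan hydroxylase, a family that makes tyrosine and the precursor of serotonin. Its probe 223-257 ranged from 9.67 to 12.15 (median 10.61) against 7.42 to 8.44 (median 7.65), 8.54-fold higher without overlap (3.09 ± 0.27, adjusted p = 1.4e-11); the other 2 probes were higher by 1.18 and 1.28 but exceeded the non-specific level on 2 and 3 of 12 eyestalk arrays.

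Transcripts linked to cuticle and blood were also higher. All 3 probes of P.mon49, annotated as an exoskeletal protein and so as a part of the cuticle, were called: probe 135-169 ranged from 8.28 to 14.09 (median 9.14) in wild eyestalk and from 7.15 to 8.02 in wild ovary (3.00 ± 0.65, adjusted p = 0.000177), probe 313-347 differed by 2.65 ± 0.75 (adjusted p = 0.00284), and probe 269-303 by 1.53 ± 0.23 (adjusted p = 8.93e-07). The median of the first lies far nearer its lowest than its highest array, so a few bright arrays set the mean. Probe 269-303 was above the non-specific level on 5 of 12 eyestalk arrays. P.mon20, annotated as haemocyte transglutaminase, the enzyme that cross-links the clotting protein of crustacean blood, was higher at 2 of 3 probes, by 1.96 ± 0.21 at 145-179 (adjusted p = 1.33e-09, at least 1.89-fold) and by 1.11 ± 0.33 at 337-371 (adjusted p = 0.00379). The latter was above the non-specific level on 4 of 12 eyestalk arrays and on no ovary array. P.mon16, which resembles a putative coding sequence of a nematode, was higher by 1.65 ± 0.25 at probe 153-187 (adjusted p = 7.57e-07).

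P.mon7 is annotated as phospholipase C, which cuts a membrane lipid into second messengers and, in Drosophila, carries the light signal in photoreceptors; its probe 8-42 was above the non-specific level on 4 of 12 wild eyestalk arrays and was higher there, at 8.11 ± 0.59 (SD) against 6.74 ± 0.08 (1.36 ± 0.15, adjusted p = 3.51e-09, at least 1.49-fold), while its other 2 probes were above the level on none of the 12. P.mon3, annotated as a trimeric G protein, which relays signals from membrane receptors, exceeded the level on no array, with differences of -0.02, -0.11 and 0.28. P.mon39, annotated as clathrin heavy chain 2, a coat protein of transport vesicles, had no probe called (differences 0.12, -0.02 and -0.06); its probe 332-366 exceeded the level on 3 of 12 eyestalk and 11 of 12 ovary arrays, and the other 2 on none. P.mon2, which resembles a human fetal heart sequence, was never above the level.

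Fewer transcripts were lower in eyestalk, and 4 of the 15 lower probes differed by 1 or more. P.mon52 is annotated as protein disulfide isomerase, an enzyme of the endoplasmic reticulum that helps secreted proteins fold, and all 3 of its probes were lower. Probe 314-348 ranged from 6.81 to 7.23 (median 6.99) in wild eyestalk and from 8.09 to 9.73 (median 8.53) in wild ovary; no eyestalk array and all 12 ovary arrays exceeded the non-specific level, at least 1.37-fold lower (-1.63 ± 0.13, adjusted p = 3.48e-12). The other 2 differed by -1.51 ± 0.31 (153-187, adjusted p = 0.000105) and -1.25 ± 0.12 (225-259, adjusted p = 1.96e-10). P.mon25 52-85, annotated as the linker histone H1, was lower by -1.38 ± 0.33 (adjusted p = 0.000508), though its second probe differed by -0.44 with an adjusted p of 0.349. The unnamed P.mon14 65-99 was lower by -0.93 ± 0.17 (limma adjusted p = 1.85e-05). The 4 remaining clones with a lower probe among those with the largest differences, P.mon51, P.mon6, P.mon35 and P.mon42, were lower by -0.33 to -0.17. No probe of P.mon51 or P.mon42 exceeded the non-specific level in either tissue. P.mon6 175-209 did so on 1 and P.mon35 293-327 on 7 of the 12 ovary arrays, and neither on an eyestalk array. P.mon35 and P.mon42 lost the call when some single arrays were left out.

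Probes of 1 clone usually did not oppose each other. Of the 38 transcripts with 2 or 3 probes, all probes were higher in 9 and all lower in 2; 14 had some probes higher and the rest not called, 6 had some lower and the rest not called, and 5 had none called. In 2 transcripts the probes went opposite ways. P.mon13, annotated as dynactin, a partner of the motor protein dynein, was lower at probe 65-99 (-0.99 ± 0.18, adjusted p = 1.46e-05) and at 265-299 (-0.57, adjusted p = 0.000111), and higher at 105-139 (0.81 ± 0.18, adjusted p = 0.000262), which was above the non-specific level on all arrays of both tissues. P.mon29 277-310 was higher by 1.48 ± 0.21 (adjusted p = 3.73e-07) and P.mon29 184-217, never above the level, was lower by -0.15 (adjusted p = 0.0217). No single direction can be given for these 2 clones.

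Captive females offered the same comparison on arrays that the wild one did not use. There 31 probes (20 transcripts) were higher in eyestalk than in ovary and 2 were lower, against 21.9% and 15.2% of all probes, and the median difference was 0.22 against 0.03. Every captive eyestalk array lay above every captive ovary array for 29 of the 100 probes, as it did for 21.9% of all probes. Of the 48 probes higher in wild eyestalk 62.5% (30) were called higher in captive eyestalk, which is 96.8% of the captive calls; 46 of the 48 had a difference above 0. Of the 15 lower probes 11 had a difference below 0 and 1 was called. No member probe was called in opposite directions in wild and captive females. The wild and captive differences had a correlation of 0.95 over the members and 0.96 over all probes. Their likeness was thus a trait of the whole array and not particular to the members.

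**Figure D2:**
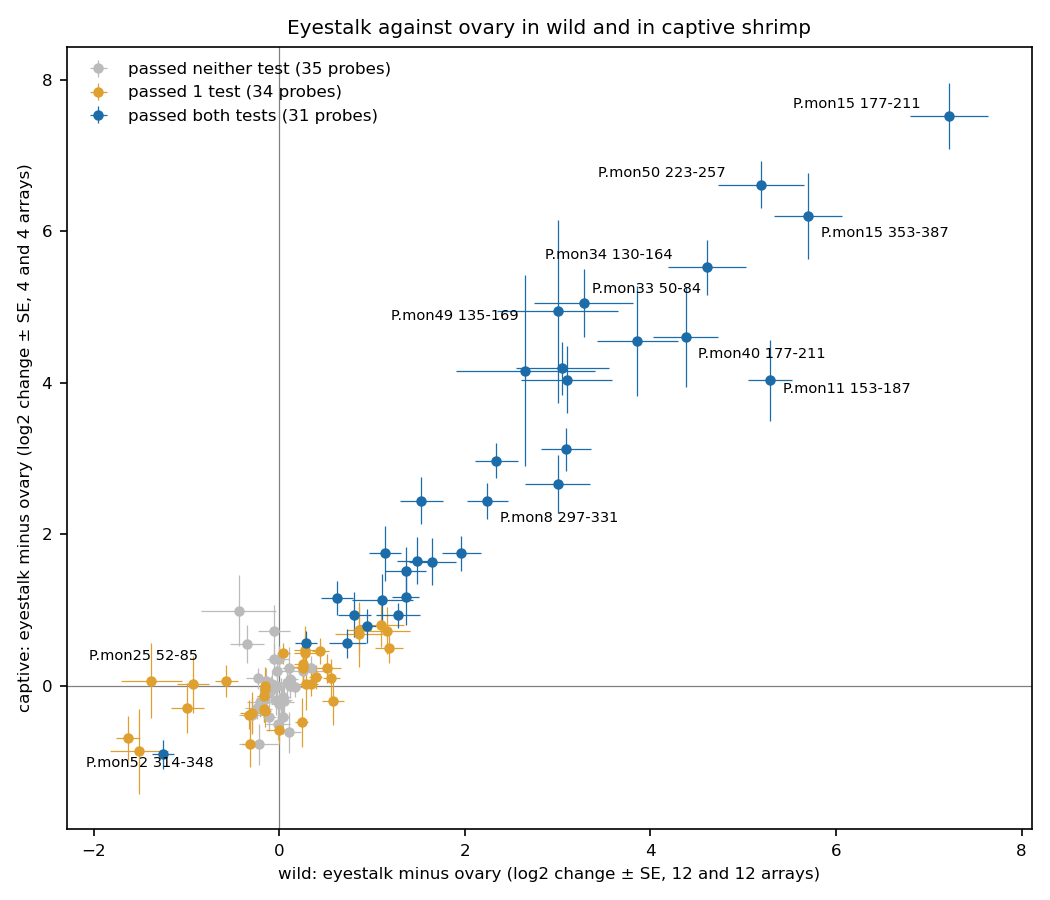
Log2 difference between eyestalk and ovary for the 100 member probes, in wild females (x axis) and captive females (y axis), with bars for the SE and colour for the number of comparisons in which a probe was called. The probes called in both (31) run along the diagonal up to P.mon15 at the upper right, and those called in neither (35) lie near 0.

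The bright clones were again far apart. P.mon15 177-211 had levels of 13.29, 15.37, 15.12 and 14.79 in captive eyestalk (preablation, postablation previtellogenic, vitellogenic and elongated cortical rod) and of 7.27, 6.66, 6.99 and 7.55 in captive ovary (7.52 ± 0.44, limma adjusted p = 2.05e-06), where 1 of the 4 ovary arrays exceeded the non-specific level. P.mon50 223-257 had 12.86, 14.23, 13.80 and 13.34 against 6.56, 6.75, 7.26 and 7.23, at least 61.7-fold (6.61 ± 0.31, adjusted p = 5.69e-07). P.mon34 130-164 was higher by at least 23.7-fold, P.mon48 134-168 by at least 15.1-fold, P.mon33 50-84 by at least 15.1-fold and P.mon40 177-211 by at least 12-fold. P.mon11 153-187 had 13.78, 11.85, 12.34 and 11.53 against 9.27, 8.55, 7.87 and 7.69 (4.03 ± 0.53, adjusted p = 0.000358). None of these groups overlapped.

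Among named transcripts, P.mon8 297-331 had 12.29, 12.85, 12.16 and 11.79 in captive eyestalk against 10.03, 9.98, 9.69 and 9.61 in captive ovary (2.44 ± 0.24, adjusted p = 5.1e-05), and P.mon17 223-257 had 10.35, 11.06, 10.74 and 10.28 against 7.25, 7.05, 7.51 and 8.15 (3.12 ± 0.28, adjusted p = 3.09e-05). P.mon49 135-169 had 14.00, 14.49, 12.55 and 8.28 against 6.81, 7.29, 7.76 and 7.69, so that the elongated cortical rod array was low and the other 3 were high (4.94 ± 1.21, adjusted p = 0.0118). The 2 lower probes were P.mon52 225-259 (-0.90 ± 0.19, adjusted p = 0.00511) and the unnamed P.mon23 149-184 (-0.58, adjusted p = 0.0398). The other probes of P.mon52 differed by -0.69 and -0.86 (adjusted p = 0.096 and 0.252).

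Wild eyestalk was next set beside wild cephalothorax, with the same 12 eyestalk arrays as above. Here 33 probes (23 transcripts) were higher in eyestalk and 11 (6 transcripts) lower, against 33.1% and 21% of all probes, so the share of higher probes was that of the array as a whole. The median difference was 0.15, against 0.13 over all probes, and every eyestalk array exceeded every cephalothorax array for 10 of the 100 probes, against 8.08%. Of the 33 higher probes, 19 exceeded the non-specific level on 6 or more eyestalk arrays.

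Against cephalothorax the bright probes fell into those with signal in both tissues and those with signal almost only in eyestalk among these 2. P.mon15 177-211 ranged from 9.25 to 12.67 (median 11.68) in cephalothorax, overlapping the eyestalk arrays (2.96 ± 0.51, adjusted p = 1.75e-05), and P.mon40 177-211 ranged from 7.55 to 11.46 (1.94 ± 0.43, adjusted p = 0.000414). P.mon43 28-61 was at 9.12 ± 0.83 (SD, n = 6) and did not differ past the threshold (0.69 ± 0.60, adjusted p = 0.338), nor did P.mon22 33-67 (0.22 ± 0.28, adjusted p = 0.514). P.mon11 153-187, in contrast, ranged from 7.11 to 7.41 in cephalothorax, with 1 of 6 arrays above the non-specific level, and was higher in eyestalk by 5.74 ± 0.29 (adjusted p = 6.8e-17). No cephalothorax array exceeded the non-specific level for P.mon50 223-257 (at least 31.5-fold), P.mon34 130-164 (at least 15.5-fold), P.mon48 134-168 (at least 14.5-fold) or P.mon33 50-84 (at least 5.94-fold), with adjusted p of 4.7e-09, 9.32e-09, 1.07e-07 and 3.71e-05. Another probe of P.mon48, 297-330, was above the level on all 6 cephalothorax arrays, at 7.77 to 8.33. For P.mon48 the split thus holds for the probe and not for the clone.

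**Figure D3:**
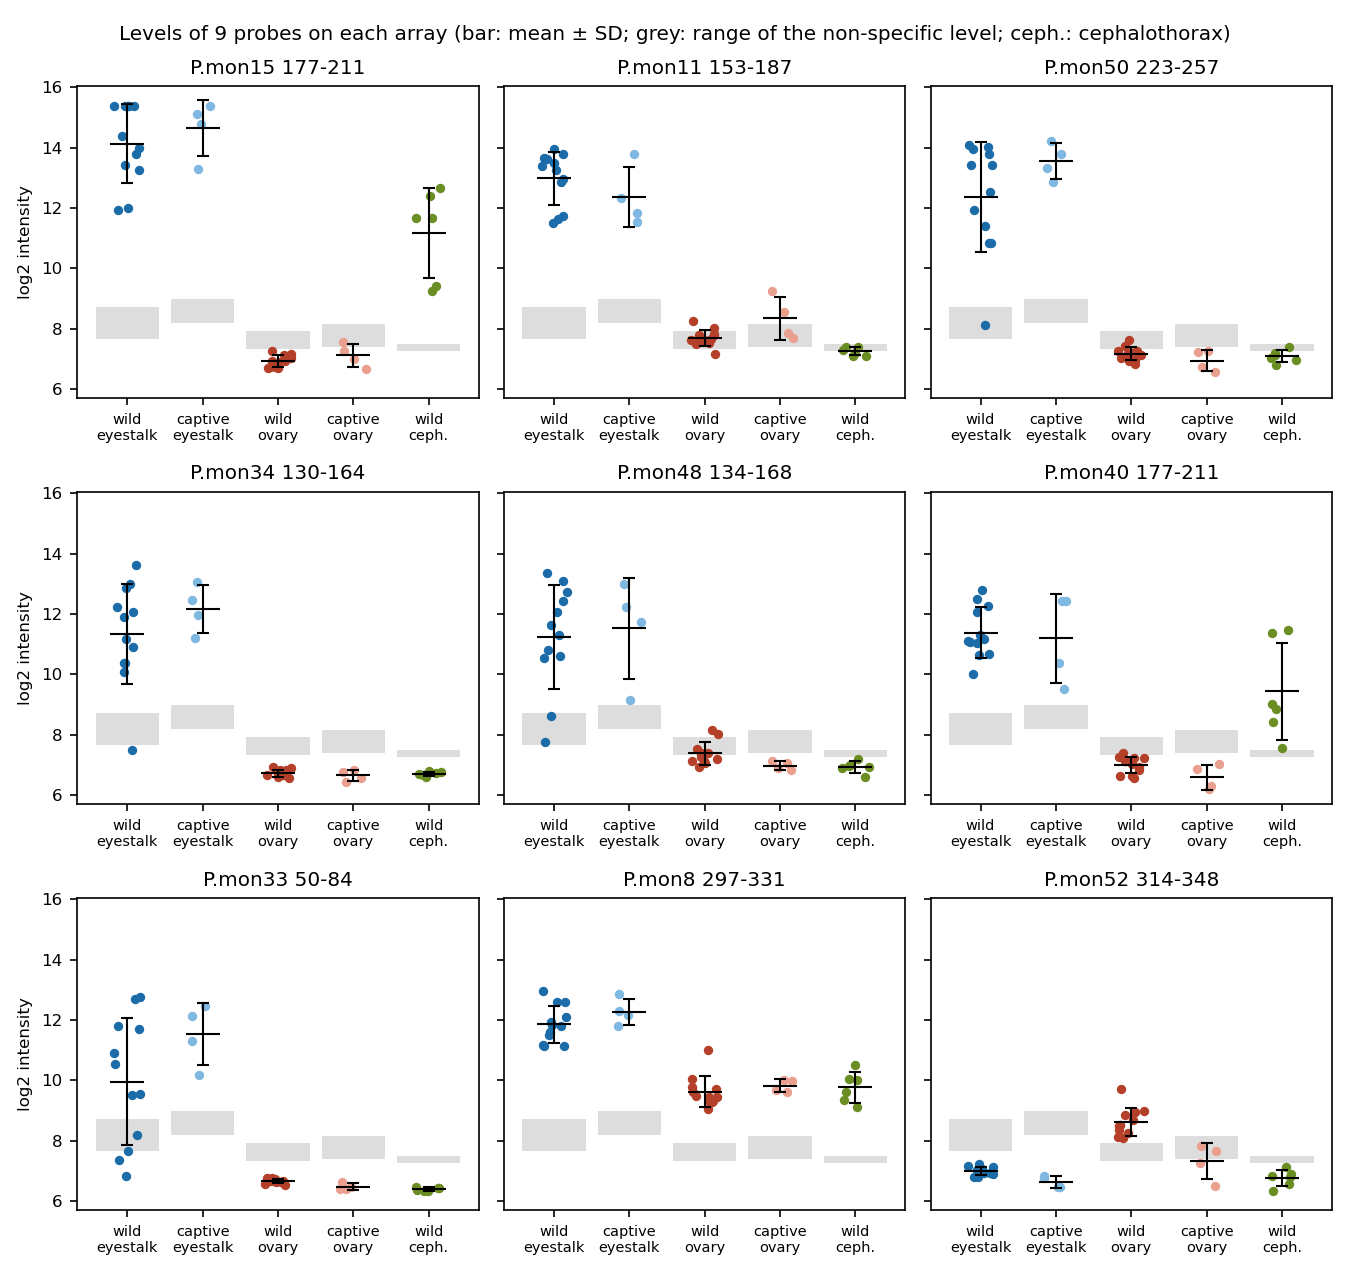
Log2 level of selected probes on every array, by tissue and origin, with the group mean ± SD as bars and the range of the non-specific level in grey. P.mon11, P.mon34, P.mon48, P.mon50 and P.mon33 are high in the eyestalk groups, P.mon15 and P.mon40 are high in eyestalk and spread upwards in cephalothorax, and P.mon52 is highest in wild ovary.

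Named transcripts divided likewise. P.mon8 297-331 was lower in cephalothorax, at 9.12 to 10.50 (eyestalk higher by 2.09 ± 0.27, adjusted p = 1.62e-07), as was P.mon17 223-257, at 8.17 to 9.88 (1.76 ± 0.33, adjusted p = 5.28e-05), P.mon16 153-187 (1.79 ± 0.30, adjusted p = 1.23e-05) and P.mon7 8-42 (1.31 ± 0.19, adjusted p = 9.92e-07). P.mon17 35-69 had a mean of 7.57 in eyestalk and 7.81 in cephalothorax, above the non-specific level on 3 of 12 and 5 of 6 arrays. P.mon17 113-147 had means of 7.79 and 7.63, above that level on 2 of 12 and 5 of 6 arrays. P.mon39 332-366 (clathrin) was higher in eyestalk by 0.64 ± 0.21 (adjusted p = 0.0129). It was above the non-specific level, which was itself higher on eyestalk arrays, on 3 of 12 eyestalk and 3 of 6 cephalothorax arrays. P.mon49 135-169 gave 1.83 ± 0.80 (adjusted p = 0.0529) and P.mon20 145-179 gave -0.15 ± 0.26 (adjusted p = 0.65). The 3 probes of P.mon52 differed by 0.01 to 0.33 and none was called.

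Of the 11 probes lower in eyestalk, 9 were above the non-specific level on 3 or more cephalothorax arrays. The unnamed P.mon37 72-105 ranged from 7.33 to 9.70 (median 8.27) in cephalothorax and from 5.69 to 7.95 (median 6.18) in eyestalk (-1.93 ± 0.30, adjusted p = 3.16e-06), and P.mon37 102-135 was lower by -1.19 ± 0.18 (adjusted p = 2.22e-06). P.mon20 337-371 (transglutaminase) was lower by -1.50 ± 0.40 (adjusted p = 0.00256) and P.mon25 52-85 (histone H1) by -1.53 ± 0.40 (adjusted p = 0.00211). P.mon6 29-63 was lower by -1.0 ± 0.22 (adjusted p = 0.000457), P.mon24 201-235 by -0.66 (adjusted p = 0.0297) and P.mon5 145-179 by -0.46 (adjusted p = 0.0204). The last was dim, above the non-specific level on 1 of 6 cephalothorax arrays and on no eyestalk array.

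Other libraries on the array showed how far a library's name went with its tissue. In wild eyestalk against wild ovary, 54 of 345 ovarian library probes were higher and 232 lower (median -1.61), 134 of 351 hepatopancreas library probes were higher and 53 lower (median 0.13), and 487 of 1223 SMART clone and contig probes were higher and 298 lower (median 0.10). The 30 eyestalk library probes outside the rule, for muscle, photoreceptor and ribosomal proteins, had 22 higher and 2 lower with a median of 1.42, against 48, 15 and 0.20 for the 100 members. The members' median thus lay below that of these 30 and nearer those of the hepatopancreas and SMART probes. Lists differ in how many dim probes they hold, and no test was made between them.

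**Figure D4:**
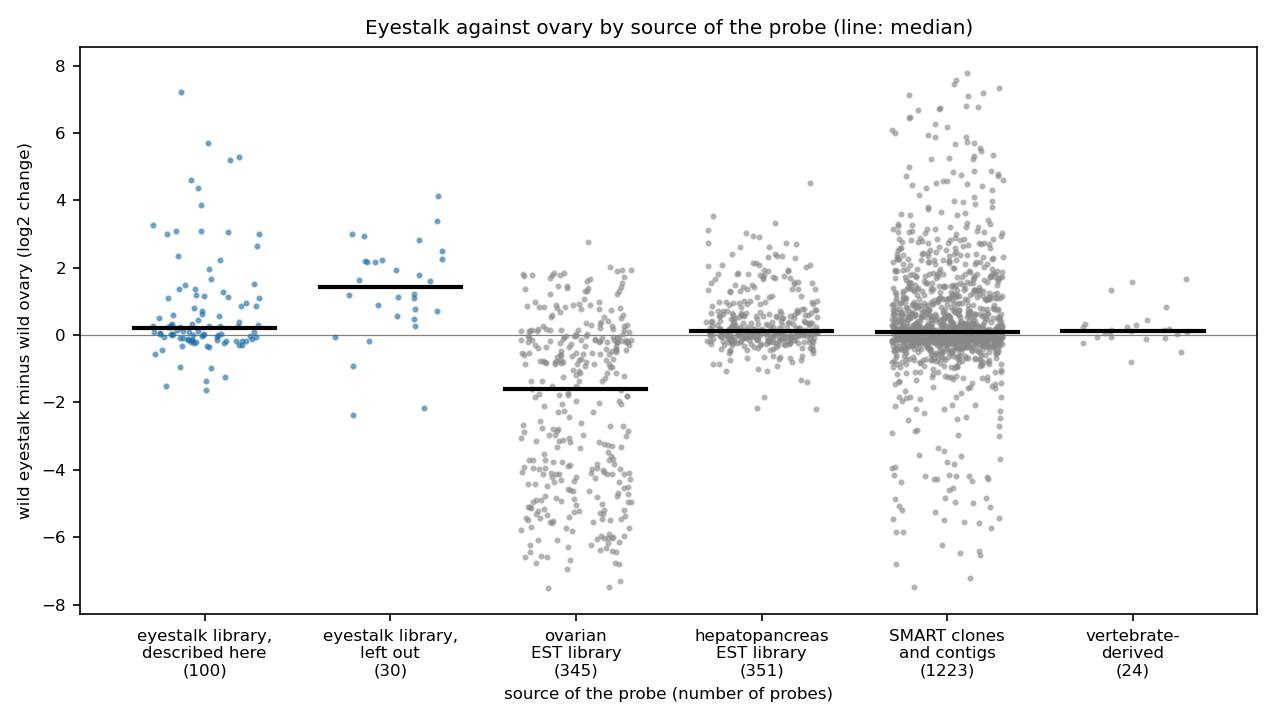
Log2 difference between wild eyestalk and wild ovary, 1 point per probe, by source of the transcript, with a line at the median. The eyestalk library members centre near 0 with a long upper tail, the 30 probes left out lie mostly above 0, and the ovarian library lies mostly below 0.

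Among the 12 wild eyestalk arrays the members varied unequally. The largest spreads belonged to P.mon49 313-347 (SD 2.84), P.mon49 135-169 (2.39), P.mon33 50-84 (2.10), P.mon43 5-39 (1.94), P.mon43 28-61 (1.86), P.mon50 223-257 (1.82) and P.mon48 134-168 (1.72), while P.mon8 297-331 had an SD of 0.61. Round cortical rod replicate 1 was the lowest array for P.mon50 (8.12), P.mon34 (7.50), P.mon48 (7.77), P.mon33 (6.82) and P.mon43 28-61 (7.20); the other array of that stage had 13.78, 12.85, 12.07, 11.70 and 11.84.

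Muscle and photoreceptor markers were uneven over the same arrays. The 3 arrays with the highest muscle marker mean, preablation replicate 2 (12.18), 2 h replicate 1 (12.04) and 2 h replicate 2 (11.72), also had the highest photoreceptor means (10.72, 10.54 and 9.65), and P.mon33 50-84 stood there at 12.76, 11.82 and 12.69. On the 3 arrays with the lowest muscle mean, vitellogenic replicate 1 (8.91), 24 h replicate 1 (9.12) and round cortical rod replicate 1 (9.20), P.mon33 50-84 was at 7.68, 7.36 and 6.82 and the photoreceptor mean at 7.55, 7.30 and 7.21. P.mon43 28-61 had 11.80, 11.35 and 12 on the first 3 of these arrays and 7.58, 8.49 and 7.20 on the last 3. Preablation replicate 1, with a muscle mean of 9.21 and a photoreceptor mean of 7.45, went another way for P.mon33 50-84, at 10.54, while P.mon43 28-61 was at 7.94. P.mon15 177-211 did not run this way, at 13.80, 13.27 and 15.37 on the first 3 and 14.00, 11.95 and 14.40 on the last. The part of muscle or eye tissue in these levels was not tested.

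P.mon49, the exoskeletal protein, followed yet another order. Its probe 135-169 was at 14.09 and 13.83 on preablation and 2 h replicate 2, 14.00 on vitellogenic replicate 2, 12.34 on elongated and 11.01 on round cortical rod replicate 2, and at 8.28 to 9.34 on the 7 remaining arrays. All 5 high arrays are of replicate 2 and lie on the slides numbered 5 and 6. Slide 4 held replicate 1 and slide 6 replicate 2, whereas slide 5 held 2 arrays of each, and within it the replicate 2 arrays were at 14.09 and 13.83 and the replicate 1 arrays at 8.71 and 8.76. P.mon20 337-371, the transglutaminase probe, was likewise at 6.24 to 7.06 on the 6 replicate 1 arrays and at 7.50 to 9.68 on the 6 of replicate 2, without overlap, and on slide 5 at 6.48 and 6.24 against 9.26 and 8.66. P.mon17 223-257 averaged 10.19, 10.37 and 11.88 on slides 4, 5 and 6, and P.mon15 177-211 averaged 12.80, 14.25 and 15.37. The last is the value that quantile normalisation gives to the second brightest probe of an array. Slides 4 and 6 also differ in replicate number and in their stages, so slide cannot be told apart from these.

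**Figure D5:**
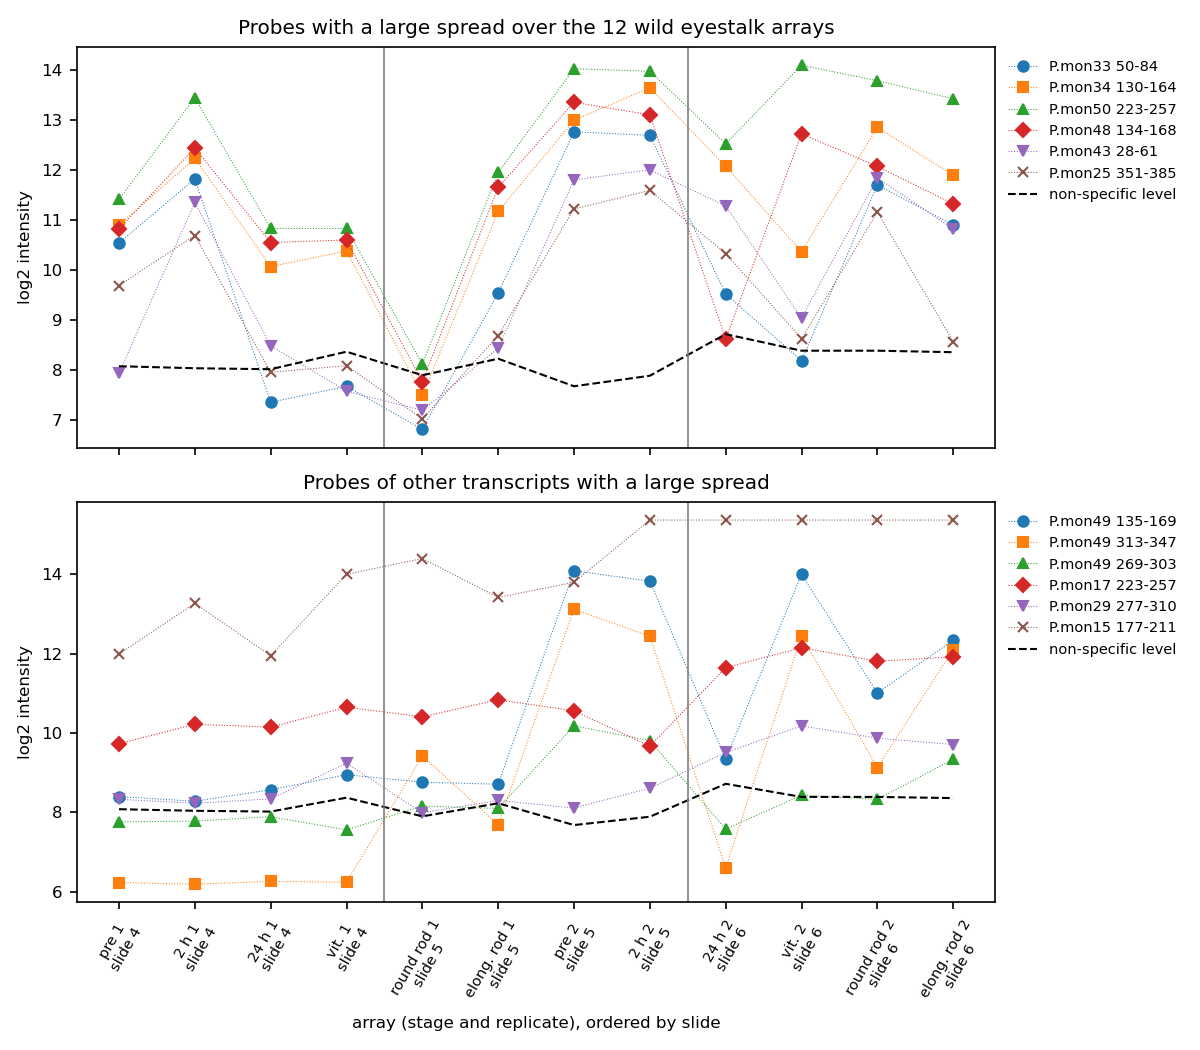
Log2 intensity of 12 member probes, most of them with a wide spread, on each of the 12 wild eyestalk arrays, ordered by slide (vertical lines part the slides; the dashed line is the non-specific level). Round cortical rod replicate 1 is low for P.mon33, P.mon34, P.mon48 and P.mon50, and P.mon49 is high on 5 arrays of replicate 2.

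The next comparisons asked whether the members changed in eyestalk with ovarian phase, ablation or rearing. None of the 100 was called at the adjusted threshold, to which the shares of all probes also belong. Counts at an unadjusted p, here and in ovary, have no share of all probes beside them. They cannot be read as an excess among the members. Between vitellogenic and previtellogenic wild eyestalk 0 members passed (7 at an unadjusted p under 0.05), against 0.625% of all probes; P.mon17 223-257 gave 0.97 ± 0.38 (adjusted p = 0.546), and within the 3 slides its difference was 0.61, 0.51 and 0.31. P.mon51 152-185 gave 0.27 and P.mon9 465-499 gave 0.33, while P.mon28 191-225 gave -0.32, P.mon25 351-385 gave -1.55 ± 0.70 and P.mon37 72-105 gave -0.70, with adjusted p of 0.416 to 0.639. P.mon33 50-84, among the widest, had differences of -2.22, -4.54 and 0.74 within slides 4, 5 and 6, which are not of the same sign. Vitellogenic replicate 1 was the only vitellogenic array on slide 4, and 24 h replicate 2 the only previtellogenic array on slide 6. The differences within these slides thus rest on a lone array of the phase concerned.

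Captive eyestalk, with 2 arrays a phase, had 0 members called (6 unadjusted) and 0% of all probes. The smallest p belonged to P.mon40 177-211, at 9.51 and 10.39 in the previtellogenic and 12.44 and 12.43 in the vitellogenic arrays (2.48 ± 0.77, limma adjusted p = 0.546). P.mon9 465-499 gave 0.57 and P.mon7 289-323 gave 0.55, and P.mon16 25-59 gave -1.27, P.mon6 175-209 gave -0.40 and P.mon12 197-231 gave -0.34. The difference between the captive and wild phase changes was called for 0 members (6 unadjusted), against 0.0446% of all probes; for P.mon40 177-211 it was 2.30 ± 0.89 and for P.mon52 314-348 and P.mon35 293-327 0.40 and 0.75, and for P.mon7 8-42, P.mon12 197-231 and P.mon29 277-310 it was -1.43, -0.45 and -1.69 (limma adjusted p = 0.733 for each).

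Between captive and wild eyestalk, 0 members were called in the previtellogenic phase, against 0.67% of all probes, and 0 in the vitellogenic phase, against 0%. At an unadjusted limma p under 0.05 there were 13 and 10 members, with no share of all probes to set beside them. The previtellogenic value nearest the threshold was P.mon52 314-348, at -0.57 ± 0.12 (limma adjusted p = 0.0524), which was above the non-specific level on none of the arrays of either group. Next to it, P.mon42 153-190 gave -0.43, P.mon35 293-327 gave -0.77, P.mon45 553-587 gave 0.43, P.mon3 81-115 gave 0.31 and P.mon16 25-59 gave 0.95 (adjusted p 0.118 to 0.23). Without the 24 h replicate 2 array of wild eyestalk 4 members were called (1 higher, 3 lower), P.mon52 314-348 among them. In the vitellogenic phase P.mon45 553-587 gave 0.38, P.mon43 154-188 gave 0.64, P.mon24 257-291 gave 0.54, P.mon51 214-253 gave -0.38, P.mon52 225-259 gave -0.42 and P.mon23 149-184 gave -0.66 (adjusted p 0.457 to 0.541).

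Ablation was followed at 2 h and 24 h, with 2 arrays per time. At 2 h 0 members were called (1 unadjusted) and at 24 h 0 (1 unadjusted), and 0% of all probes at each time. At 2 h P.mon24 201-235 gave 1.16 ± 0.45 and P.mon7 8-42 gave -0.75 ± 0.50 (adjusted p = 0.998); P.mon39 332-366 and P.mon36 115-148 gave 0.54 and 1.24, and P.mon16 153-187 and P.mon23 255-291 gave -0.68 and -0.22. At 24 h P.mon48 297-330 gave 1.85 ± 0.74 and P.mon33 50-84 gave -3.21 ± 1.54 (adjusted p = 0.992); P.mon3 143-176 and P.mon28 147-181 gave 0.28 and 1.66, and P.mon52 153-187 and P.mon25 52-85 gave -1.33 and -1.21.

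In ovary, where most members are dim, wild females showed 0 members called between the phases (2 unadjusted), against 0% of all probes. P.mon40 177-211, P.mon25 351-385 and P.mon39 113-147 gave 0.29, 0.35 and 0.21, and P.mon52 225-259, P.mon14 289-323 and P.mon48 134-168 gave -0.37, -0.22 and -0.33 (limma adjusted p = 0.978 for each).

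Of the captive ovary arrays, the preablation one stood apart, with a non-specific level of 8.15 and 14 members above it, against 7.41 to 7.47 and 25 to 29 on the other 3. Previtellogenic ovary differed between captive and wild females: 20 members were higher and 12 lower in captive ovary (2 arrays against 6), against 14% and 9.15% of all probes. In 16 of these 32 the brighter group was above the non-specific level on 3 or more of 6 or 1 or more of 2 arrays, and 16 were above it on no array of either group. P.mon52 314-348 (protein disulfide isomerase) was at 6.52 and 7.25 in the captive arrays and between 8.09 and 9.73 in the wild ones, at least 1.94-fold lower without overlap (-1.88 ± 0.34, limma adjusted p = 0.00133), and P.mon52 225-259 was lower by -0.78 ± 0.22 (adjusted p = 0.0223). P.mon25 52-85 (histone H1) was lower by -1.23 ± 0.35 (adjusted p = 0.0223), and P.mon14 65-99, P.mon35 293-327 and P.mon8 17-51 were lower by -1.17, -0.82 and -0.69. P.mon11 153-187, the bright eyestalk clone, was higher, at 9.27 and 8.55 in captive against a mean of 7.72 ± 0.29 (SD, n = 6) in wild ovary (1.19 ± 0.24, limma adjusted p = 0.00279). Median scaling in place of quantile normalisation gave 15 calls in place of 32, as did leaving out the captive preablation array, and both ended the call of P.mon11 but not that of P.mon52 314-348.

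The largest rises were near the non-specific level. P.mon48 212-246 was higher by 1.45 ± 0.13 (adjusted p = 8.49e-06), P.mon43 154-188 by 1.37 ± 0.15 and P.mon12 197-231 by 1.34 ± 0.14, each above the level on 1 of the 2 captive arrays and none of the wild ones. P.mon28 147-181, P.mon46 118-151 and P.mon6 175-209, above it on both captive arrays, were higher by 1.10, 1.01 and 0.92; P.mon20 145-179, higher by 1.12, was above it on none. P.mon40 177-211 (-0.63), P.mon50 223-257 (-0.53) and P.mon47 114-148 (-0.48) were lower but above the level on no array, and in these 3 clones and in P.mon7 another probe was higher (P.mon40 121-155 by 0.69, P.mon50 264-297 by 0.90, P.mon47 257-291 by 0.64, P.mon7 101-135 by 0.90 against P.mon7 289-323 at -0.44). No direction can be given for these 4 clones.

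The phases of captive ovary were compared on 2 arrays against 2. The previtellogenic 2 are those just used, so the comparisons share arrays. Here 3 members were higher and 10 lower in the vitellogenic phase, against 2.77% and 7.37% of all probes. Both shares were near those of all probes. In 9 of these 13 the brighter group was above the non-specific level on 1 or more of its 2 arrays. Another 4 were above it on no array of either group. P.mon9 465-499 was higher by 1.02 ± 0.19 (limma adjusted p = 0.00629), P.mon35 293-327 by 0.92 and P.mon47 114-148 by 0.54. P.mon12 197-231 was lower by -1.14 ± 0.17 (adjusted p = 0.00147), P.mon11 153-187 by -1.13 ± 0.29 (adjusted p = 0.0281), P.mon48 212-246 by -1.09 ± 0.16 (adjusted p = 0.00146) and P.mon6 175-209 by -1.08 ± 0.18 (adjusted p = 0.00275). P.mon7 101-135, P.mon50 264-297, P.mon43 154-188 and P.mon3 289-323 were lower by -0.96, -0.85, -0.72 and -0.69, and P.mon47 257-291 was lower while its partner probe was higher. Median scaling gave 2 calls in place of 13 (1 higher, 1 lower), a fit of these 4 arrays alone gave 0, and leaving out the captive elongated cortical rod or the wild 2 h replicate 1 array gave 4 or 19. In the vitellogenic phase 0 members were called between captive and wild ovary (18 unadjusted), against 0% of all probes; P.mon43 154-188, P.mon45 553-587 and P.mon23 255-291 gave 0.68, 0.53 and 0.44, and P.mon52 153-187, P.mon42 153-190 and P.mon23 149-184 gave -1.38, -0.42 and -0.58 (adjusted p 0.0824 to 0.278). Captive and wild ovary lay on different slides, so rearing and slide cannot be told apart.

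In wild cephalothorax, 5 members were higher and 0 lower in the vitellogenic phase (3 arrays against 3), against 5.4% and 6.07% of all probes, so that the share of higher members was near that of all probes. P.mon15 353-387 had levels of 7.73, 8.27 and 9.56 before (preablation, 24 h and 2 h) and 10.59, 11.15 and 11.65 in the vitellogenic, elongated and round cortical rod arrays, a difference of 2.61 ± 0.52 (limma adjusted p = 0.0266). Its second probe, P.mon15 177-211, had 9.25, 9.41 and 11.68 against 11.68, 12.67 and 12.39 and was not called (2.14 ± 0.69, adjusted p = 0.114). P.mon17 223-257 (phenylalanine/tryptophan hydroxylase) had 8.59, 8.17 and 8.24 against 9.67, 9.77 and 9.88, the narrowest groups of the 5 (1.44 ± 0.16, adjusted p = 0.00577).

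The other 3 called were P.mon16 153-187 (1.07 ± 0.22, adjusted p = 0.0292), P.mon37 102-135 (1.04 ± 0.23, adjusted p = 0.0362) and P.mon20 193-227 (0.97 ± 0.19, adjusted p = 0.0271). The remaining probes of these 3 clones were not called. They gave -0.06 and -0.16 for P.mon16, 0.52 and 0.84 for P.mon37, and 0.59 and 0.50 for P.mon20. For all 5 called probes every vitellogenic array lay above every previtellogenic one, so the sign within each slide was fixed and adds nothing. The differences within the larger and the smaller slide were 2.87 and 2.09 for P.mon15 353-387 and 1.34 and 1.64 for P.mon17. They were 0.98 and 1.26 for P.mon16, 1.22 and 0.69 for P.mon37 and 0.82 and 1.26 for P.mon20. The smaller slide holds 1 array of each phase. P.mon43 5-39, P.mon28 147-181 and P.mon45 553-587 gave -0.64, -0.43 and -0.30 and were not called. The count was 1 without the preablation or the elongated cortical rod array and 8 without the 24 h array, and of the 5 calls P.mon17 alone held with each array left out in turn.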

How the data were processed

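The deposited files hold spot intensities (foreground mean and median, no background column) for 38 arrays in 10 slides, per the file headers. The authors' deposited value table held the same intensities, with 100% of 85082 values equal within 0.01, column medians of 72.29 to 384.2, and thus a linear, uncentred scale; 0 member spots were at the scanner's ceiling of 65535. The sources used here do not give the image analysis settings.

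Foreground means were corrected with normexp (offset 50), log2-transformed, quantile-normalised over the 38 arrays and fitted with limma 3.58.1 in R 4.3.3, with Benjamini-Hochberg adjustment over 2240 probes and a threshold of 0.05. Tissues were compared in 1 fit of the 30 wild arrays and 1 of the 8 captive arrays; phase and rearing within the 16 eyestalk or 16 ovary arrays; ablation within the 12 wild eyestalk arrays. P-values measure the spread between pools or arrays, which may in part be technical. The number of arrays limits the precision.

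Members, marker lists and the non-specific level were chosen with earlier results of these data known. Named were every annotated member, up to 8 called probes of largest change in each direction (1 per clone), the 3 of smallest p where fewer than 3 were called, clones with opposed probes, and the brightest and most variable clones in wild eyestalk. The fit was checked on simulated data. Alternatives covered scaling, background, spot summary, dim probes, slide, replicate number, single arrays and a plain test. Figures were drawn with matplotlib 3.10.9.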

Additional observations from a re-analysis of the deposited data

Results flagged for a closer look

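In 68 checks (17 probes in each of 4 wild groups of 6 arrays), 4 values, on 3 arrays, stood far from the rest of their group by Dixon's criterion; chance alone gives about 3.4 at 5%. Round cortical rod replicate 1 of wild eyestalk was the highest vitellogenic array for P.mon15 353-387 (14.49, the others 12.15 to 12.61) and for P.mon7 8-42 (9.28, the others 8.03 to 8.46); it was also the lowest array for P.mon50, P.mon34, P.mon48 and P.mon33. Preablation replicate 2 of wild eyestalk was the highest previtellogenic array for P.mon40 177-211 (12.49, the others 10.69 to 11.32). Round cortical rod replicate 1 of wild ovary was the lowest vitellogenic array for P.mon40 177-211 (6.65, the others 7.13 to 7.40), below the non-specific level like the rest.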

How the results depend on the processing

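Of 364 recounts of called members, 337 stayed within 1.5 times the count first reported, and of 2070 repeats for the 72 named calls 193 lost the call and 0 reversed. With dim probes left out, 39 of 47 members tested were called in wild eyestalk against ovary (31 higher, 8 lower, in place of 63 of 100, with fewer tested), 16 of 41 between captive and wild previtellogenic ovary and 5 of 41 between the captive ovary phases. Median scaling gave 15 and 2 in these ovary comparisons and 3 in cephalothorax, and moved the median of all probes to -0.208 and 0.177 in the former. The methods' t-test gave 1 in captive against wild previtellogenic eyestalk, 11 and 0 in the ovary comparisons and 1 in cephalothorax; fitting 2 groups alone gave 13 and 0 in ovary, foreground medians gave 1 in captive against wild previtellogenic eyestalk, and slide as a block gave 3 in cephalothorax.

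Leaving out 1 array at a time gave 60 to 65 calls in wild eyestalk against ovary, 41 to 48 against cephalothorax and 25 to 31 in captive females. It gave 0 to 4 in captive against wild previtellogenic eyestalk, 15 to 32 and 0 to 1 in captive against wild ovary (previtellogenic, vitellogenic), 4 to 19 between captive ovary phases and 1 to 8 in cephalothorax; a lone remaining array was taken to vary like the other groups. Leaving out each slide of wild eyestalk arrays, chosen after seeing the data, gave 58 to 62 against ovary and 44 to 47 against cephalothorax. Under median scaling 4 values not called changed sign or reached 0: P.mon16 25-59 (-0.00) and P.mon42 153-190 (0.25) in captive against wild previtellogenic eyestalk, P.mon51 214-253 (0.02) in the vitellogenic phase, and P.mon52 314-348 (-0.06) in the difference of phase changes. The causes were not tested.

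Same-numbered arrays correlated with r of -0.139 to 0.582 in wild eyestalk (12 of 15 pairs over 0.1), -0.328 to 0.655 in wild ovary (10 of 15) and -0.0784 to 0.329 between eyestalk and ovary (8 of 12). As some pairs were not over 0.1, the number was not taken to pair the samples. With the replicate block 62 members were called in wild eyestalk against ovary, 47 against cephalothorax and, with stage as the block, 44 in captive females; the count was 0 in wild eyestalk by phase and after ablation and in wild ovary by phase. Probes near the non-specific level limit what can be said of dim members.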
